A study of Mus musculus with 6 samples.

Results

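The OCT4 and NANOG binding regions around *Klf2*, *Klf4* and *Klf5*, 3 genes of the Krüppel-like factor (KLF) family, are described here. The regions are all intervals of the 6 peak lists that lie within 100 kb of the body of one of these genes in an annotation of the mouse assembly mm9, and those within 20 kb were marked. There were 21 such regions among 23767 in all lists, 8 at *Klf2*, 5 at *Klf4* and 8 at *Klf5*, and 8 of the 21 lay within 20 kb of a gene body. The study followed mouse embryonic stem cells (ESCs) as they lose the orphan nuclear receptor ESRRB, a transcription factor of naive pluripotency. It used E-GFPd1 cells (Esrrb-2a-GFPd-IBIH), E14Tg2a ESCs in which a destabilised GFP is expressed from *Esrrb*, kept in serum and LIF. Fixed cells were sorted by fluorescence into 3 fractions, Esrrb-GFP high, which are the brightest 10%, Esrrb-GFP medium, which are the 15% just above the negative gate, and Esrrb-GFP negative, and chromatin was precipitated with an in-house rabbit antibody to NANOG or a goat antibody to OCT4. There is 1 library per factor and fraction, pooled from 3 ChIPs, so no spread between replicates can be given, no test between fractions was possible, and the differences below are differences between single libraries. All 3 fractions come from the same reporter line, and the source field of the labels calls the negative fraction low.

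Presence in a list is the only measurement. Per the methods of the study, overlapping peaks of all datasets were merged, and a merged region was taken as lost in a fraction where its signal, corrected for depth, was under 50% of that in the highest fraction. "Lost" therefore means a fall below that limit and not the absence of all binding, and the read depth behind each list is unknown. The lists hold 12449, 14464 and 10369 OCT4 regions in Esrrb-GFP high, medium and negative cells and 9425, 4729 and 286 NANOG regions, so a loss of NANOG in negative cells is the rule across the genome. Intervals given with shares are exact 95% binomial intervals. They cover counting error over regions only, and neighbouring regions of 1 locus are not independent. Regions that hold both factors in the high fraction are split as in the study, into Class I, with neither factor in negative cells, and Class II, with OCT4 and without NANOG in negative cells.

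KLF proteins bind GC-rich and CACC-type DNA through 3 zinc fingers at their C terminus. KLF2, KLF4 and KLF5 are expressed in naive ESCs, where they bind many enhancers of the pluripotency network and can in part replace each other. *Klf4* is a target of LIF signalling through STAT3, the protein encoded by *Klf2* is stabilised when MEK and ERK are inhibited, and *Klf5* also acts in the early embryo. OCT4, encoded by *Pou5f1*, binds the octamer or, together with SOX2, a composite Oct-Sox element, and NANOG is a homeodomain protein that occupies many of the same enhancers.

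The sequences on which the description turns are printed first, from mm9, on the plus strand and from 5′ to 3′. They were chosen after the regions had been seen. Capitals mark matches on either strand to the octamer (ATGCAAAT, exact), to the Oct-Sox composite (the SOX part CNTTGT, 1 free base, then ATGCAAA, with up to 2 mismatches) or to the ESRRB element (TCAAGGTCA, with up to 1 mismatch). The composite holds most of the octamer, so both can match at the same place. Regions wider than 300 bp are shown by their central 300 bp. The first 4 lie downstream of *Klf4*, at chr4:55477092-55477391, chr4:55488332-55488551, chr4:55490362-55490661 and chr4:55532592-55532791, and are shown because they hold all of the OCT4 and NANOG at this gene in Esrrb-GFP high cells.
Klf4, 68.1 kb downstream of the start site, Class I: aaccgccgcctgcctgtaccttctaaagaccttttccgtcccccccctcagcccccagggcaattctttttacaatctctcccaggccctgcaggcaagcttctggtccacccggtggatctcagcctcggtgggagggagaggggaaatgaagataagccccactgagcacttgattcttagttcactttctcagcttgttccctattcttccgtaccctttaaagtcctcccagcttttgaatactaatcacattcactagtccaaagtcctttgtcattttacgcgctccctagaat
Klf4, 56.9 kb downstream, Class I: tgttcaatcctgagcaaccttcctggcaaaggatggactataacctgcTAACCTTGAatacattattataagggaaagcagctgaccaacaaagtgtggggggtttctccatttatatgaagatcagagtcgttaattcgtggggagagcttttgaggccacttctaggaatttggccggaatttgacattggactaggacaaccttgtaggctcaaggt
Klf4, 54.8 kb downstream, Class I: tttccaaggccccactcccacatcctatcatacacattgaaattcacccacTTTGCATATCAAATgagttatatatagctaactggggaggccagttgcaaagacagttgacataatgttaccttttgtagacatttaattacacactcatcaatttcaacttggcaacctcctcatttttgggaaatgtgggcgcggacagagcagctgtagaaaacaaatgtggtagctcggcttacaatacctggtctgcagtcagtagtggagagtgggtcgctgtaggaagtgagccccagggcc
Klf4, 12.7 kb downstream, OCT4 without NANOG: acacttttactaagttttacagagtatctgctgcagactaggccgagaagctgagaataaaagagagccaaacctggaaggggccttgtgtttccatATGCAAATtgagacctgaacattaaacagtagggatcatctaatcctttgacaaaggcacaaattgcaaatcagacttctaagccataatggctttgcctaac

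Of *Klf2*, the adjacent NANOG and OCT4 regions upstream (chr8:74835092-74835351, shown with the 20 bp between them), the Class II region nearest to the gene (chr8:74840112-74840211) and a Class I region downstream (chr8:74858332-74858451) are shown, since they differ in which factor was found and kept.
Klf2, 7.8 to 7.7 kb upstream, NANOG region followed by OCT4 region: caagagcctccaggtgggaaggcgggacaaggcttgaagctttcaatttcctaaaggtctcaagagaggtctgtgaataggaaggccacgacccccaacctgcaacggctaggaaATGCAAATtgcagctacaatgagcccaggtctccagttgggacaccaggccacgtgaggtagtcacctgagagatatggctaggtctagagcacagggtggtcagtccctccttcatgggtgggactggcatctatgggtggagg
Klf2, 2.8 kb upstream, Class II: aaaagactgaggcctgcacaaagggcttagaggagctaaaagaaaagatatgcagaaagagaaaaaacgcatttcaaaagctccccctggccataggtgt
Klf2, 15.5 kb downstream, Class I: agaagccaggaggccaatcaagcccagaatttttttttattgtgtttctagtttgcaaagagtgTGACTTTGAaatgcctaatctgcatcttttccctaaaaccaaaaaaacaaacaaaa

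Of *Klf5*, a pair of regions 300 bp apart is shown that kept OCT4 in all fractions (chr14:99739052-99739151 and chr14:99739452-99739691).
Klf5, 41.2 kb downstream, OCT4 without NANOG in all fractions: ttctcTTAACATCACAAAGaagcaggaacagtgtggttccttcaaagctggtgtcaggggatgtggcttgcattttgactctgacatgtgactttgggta
Klf5, 41.7 kb downstream, Class II: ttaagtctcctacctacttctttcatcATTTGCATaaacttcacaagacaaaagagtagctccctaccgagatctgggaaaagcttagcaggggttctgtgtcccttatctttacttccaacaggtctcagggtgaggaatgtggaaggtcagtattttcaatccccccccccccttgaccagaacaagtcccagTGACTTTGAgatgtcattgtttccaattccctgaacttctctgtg

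None of the 21 regions lay inside a KLF gene body, and none had its centre within 1 kb of a start site (the map of regions by distance from the start site). Each gene was therefore described by distal regions, of which 8 were upstream. The closest protein-coding gene was the KLF gene itself for 11 of the 21. At *Klf2*, 7 of the 8 regions were nearer to a neighbour, *Ap1m1*, *Gm10282* or *Eps15l1*, and the lists do not say which gene a region acts on. By width, the members ranged from 40 to 700 bp with a median of 100 bp, against a median of 80 bp over all regions. The GC content of the 200 bp around their centres had a median of 48.5%, from 38.0 to 55.5%, against 48.0% over all regions.

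**Figure D1:**
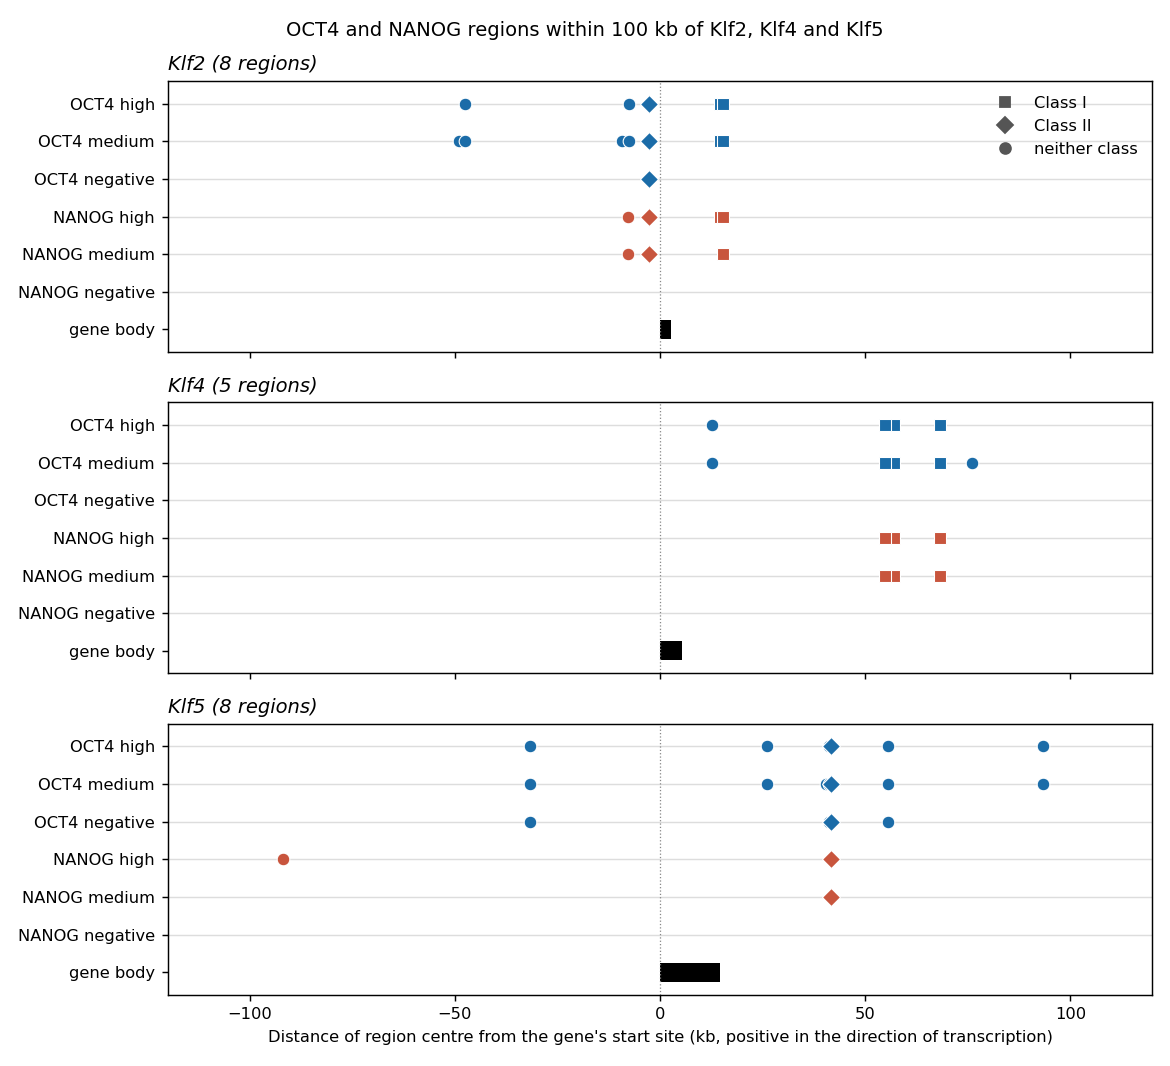
Regions of each list by distance of their centre from the start site of *Klf2*, *Klf4* and *Klf5* (kb, positive in the direction of transcription), with 1 row per library, blue for OCT4 and red for NANOG, squares for Class I, diamonds for Class II, circles for the other regions and a black bar for the gene body. The 5 regions of *Klf4* all lie downstream and none is in the OCT4 negative row, whereas 4 regions of *Klf5* are, and the NANOG negative rows are empty.

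*Klf4* lost all of its listed OCT4 and NANOG regions in Esrrb-GFP negative cells. The gene (ENSMUSG00000003032) spans 55540013 to 55545347 of chromosome 4, on the minus strand. The OCT4 lists of high, medium and negative cells held 4, 5 and 0 regions there, and the NANOG lists 3, 3 and 0. High and medium cells thus had nearly the same regions, and the negative lists held none within 100 kb. Over all regions, 45.1% of the OCT4 and 97.5% of the NANOG regions of high cells were absent from negative cells. An OCT4 region of negative cells lay within 100 kb of 60.7% of protein-coding genes, so *Klf4* shares its absence with many genes.

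The 3 Class I regions of *Klf4* lay close together, within 13.7 kb of chromosome 4, 54.8 to 68.1 kb downstream of the start site. All 3 were bound by both factors in high cells, by both in medium cells and by neither in negative cells. The most distal of them, chr4:55477072-55477411, lies in an intron of *Gm12510*, a processed transcript, and measures 340 bp. The middle one, chr4:55488332-55488551, is 220 bp wide and lies between genes. The one nearest to *Klf4*, chr4:55490272-55490751, is 480 bp wide and also lies between genes, and 0.879% of all regions are at least this wide. Widths are those of peaks merged over libraries and depend in part on how many libraries contributed.

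The region nearest to the *Klf4* body, chr4:55532592-55532791, is 12.7 kb downstream of the start site and the single one within 20 kb. OCT4 was listed there in the high and medium fractions but not in the negative one, and NANOG in no fraction. The fifth region, chr4:55469412-55469451, 75.9 kb downstream, was listed for OCT4 in medium cells alone. It also lies in an intron of *Gm12510* and is nearest to *Rad23b*, a gene of DNA repair.

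*Klf2* kept OCT4 at 1 region in negative cells, and 60.7% of protein-coding genes had at least 1 OCT4 region of negative cells within 100 kb. *Klf2* lost 4 of its 5 OCT4 regions of high cells and all 4 NANOG regions, against 45.1% and 97.5% over all regions. The gene (ENSMUSG00000055148) lies on the plus strand of chromosome 8, from 74842932 to 74845555. The OCT4 lists of high, medium and negative cells held 5, 7 and 1 regions there, and the NANOG lists 4, 3 and 0. These regions lay nearer to this gene than at the other KLF loci, with 6 of 8 within 20 kb.

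The region that kept OCT4, chr8:74840112-74840211, is 2.8 kb upstream of the start site and the nearest to *Klf2*. It is a Class II region, with OCT4 in all 3 fractions and NANOG in the high and medium ones. Downstream of *Klf2*, a pair of Class I regions 820 bp apart lay 14.5 and 15.5 kb from the start site, at chr8:74857432-74857511 and chr8:74858332-74858451. They are nearest to *Eps15l1*, an endocytic adaptor gene. In medium cells the first of them had OCT4 without NANOG and the second had both factors. NANOG thus fell below the limit of the study in medium cells at the first only. How far the signals of the pair differed there is unknown.

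Upstream of *Klf2*, NANOG and OCT4 were listed in separate intervals 20 bp apart. NANOG was listed at chr8:74835092-74835191 in high and medium cells, with no OCT4 there in any fraction. OCT4 was listed at chr8:74835212-74835351 in high and medium cells, with no NANOG. Both factors were thus present within 260 bp and both were lost in negative cells, but because the intervals do not overlap neither is counted as bound by both. If regions within 500 bp are joined, this pair becomes 1 Class I region and *Klf2* then has 3. Over the genome, 103 of the 5750 NANOG regions of high cells without OCT4 (1.79%) had an OCT4 region without NANOG at a distance of at most 20 bp.

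The other *Klf2* regions held OCT4 alone. Chr8:74833552-74833611, 9.4 kb upstream, and chr8:74794012-74794071, 48.9 kb upstream, were listed in medium cells only. Chr8:74795372-74795471, 47.5 kb upstream and nearest to *Ap1m1*, a clathrin adaptor gene, was listed in high and medium cells.

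*Klf5* kept OCT4 in negative cells at 4 of its 6 OCT4 regions of high cells and lost it at 2, against 45.1% lost over all regions. The gene (ENSMUSG00000005148) lies on the plus strand of chromosome 14, from 99697910 to 99712624. The OCT4 lists of high, medium and negative cells held 6, 7 and 4 regions there, and the NANOG lists 2, 1 and 0, against a median over protein-coding genes of 1, 0 and 0 for NANOG. No Class I region lay within 100 kb, unlike at *Klf2* and *Klf4*, but 18.3% of protein-coding genes had one, so none is the usual case. Only 1 *Klf5* region had both factors in high cells and could have been of Class I. The contrast also depends on distance: within 20 kb *Klf4* had 0 Class I regions, and within 200 kb *Klf5* had 2.

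The 4 *Klf5* regions with OCT4 in every fraction were at chr14:99666052-99666431 (380 bp wide, 31.7 kb upstream), chr14:99739052-99739151, chr14:99739452-99739691 and chr14:99753412-99753471 (55.5 kb downstream). Of these, chr14:99739452-99739691 also had NANOG in high and medium cells and is the single Class II region of this gene. The other 3 had no NANOG in any fraction. With a region listed for OCT4 in medium cells only, chr14:99738252-99738451, the pair around 41 kb downstream forms a group of 3 regions within 1.44 kb, and the members of this group differ in fraction and factor: medium OCT4 only, OCT4 throughout, and OCT4 throughout with NANOG in high and medium cells.

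OCT4 was lost in negative cells from chr14:99723552-99724251, 26.0 kb downstream, and from chr14:99791112-99791171, 93.2 kb downstream. The first is the one *Klf5* region within 20 kb of the gene body. It is 700 bp wide, the widest of the 21, and 0.135% of all regions are at least as wide. NANOG without OCT4 was listed once, in high cells only, at chr14:99606032-99606111, in an intron of *Pibf1* and 91.8 kb upstream of *Klf5*.

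**Figure D2:**
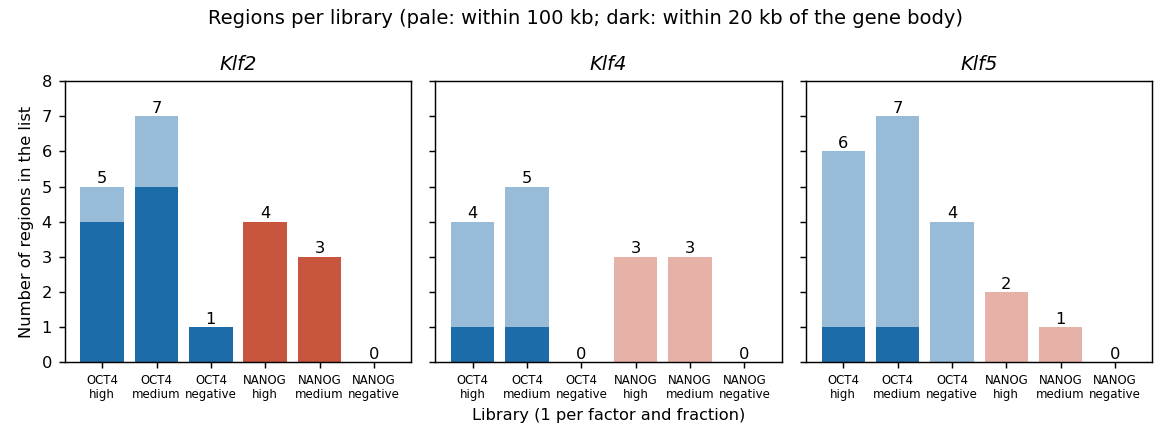
Number of OCT4 (blue) and NANOG (red) regions in each library within 100 kb (pale bars, with the number above) and within 20 kb (dark bars) of the gene body, 1 library per bar. OCT4 was present at 5, 7 and 1 regions of *Klf2*, 4, 5 and 0 of *Klf4* and 6, 7 and 4 of *Klf5* in high, medium and negative cells.

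Over the 3 loci, OCT4 regions of high cells were kept in medium cells and many were lost in negative cells. Of 15 OCT4 regions of high cells, 0 were lost in medium cells (interval 0 to 21.8%), against 21.3% of all regions. This interval just includes the genome-wide share, so a lower loss than over the genome was not detected. From high to negative cells 10 of 15 were lost, 66.7% (38.4 to 88.2%), against 45.1% of all regions. The interval at the KLF loci includes the genome-wide share, so a higher loss than over the genome was not detected.

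The loci differed from each other in this share. *Klf2* lost 4 of 5 OCT4 regions, *Klf4* 4 of 4 (39.8 to 100%) and *Klf5* 2 of 6 (4.33 to 77.7%). The intervals overlap and the difference was not tested.

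From medium to negative cells 14 of 19 OCT4 regions were lost, 73.7% (48.8 to 90.9%), against 44.1% of all regions. The interval over the 3 loci lies above the genome-wide share, but this depended on which regions were taken: it included that share in 4 of 7 alternatives, among them regions within 20 kb (6 of 7, 42.1 to 99.6%) and within 50 kb (10 of 15, 38.4 to 88.2%). Another alternative, 100 kb of the start site, held the same regions, so its interval could not differ. The 19 regions include 4 that were listed in medium but not in high cells, 2 at *Klf2* and 1 at each of the other genes, and all 4 were absent from the negative list. Regions in medium and not in high cells made up 21.1% (6.05 to 45.6%) of the medium regions here and 32.3% over the genome. No region of these loci was gained: of the 5 OCT4 regions of negative cells, 0 were absent from high cells (0 to 52.2%). The share over all OCT4 regions of negative cells, 34.1%, lies within that interval.

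NANOG was lost from every region. All 9 NANOG regions of high cells were absent from negative cells (66.4 to 100%), against 97.5% of all regions, and all 7 of medium cells were absent (59.0 to 100%), against 96.2%. Both shares are near those of the genome and say little about the KLF loci. In medium cells 2 of 9 had been lost, 22.2% (2.81 to 60.0%), against 52.3% of all NANOG regions of high cells, and the interval includes the latter. All 3 NANOG regions of *Klf4* were still listed in medium cells. The 2 that were lost were the first of the Class I pair downstream of *Klf2* and the region in *Pibf1*.

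**Figure D3:**
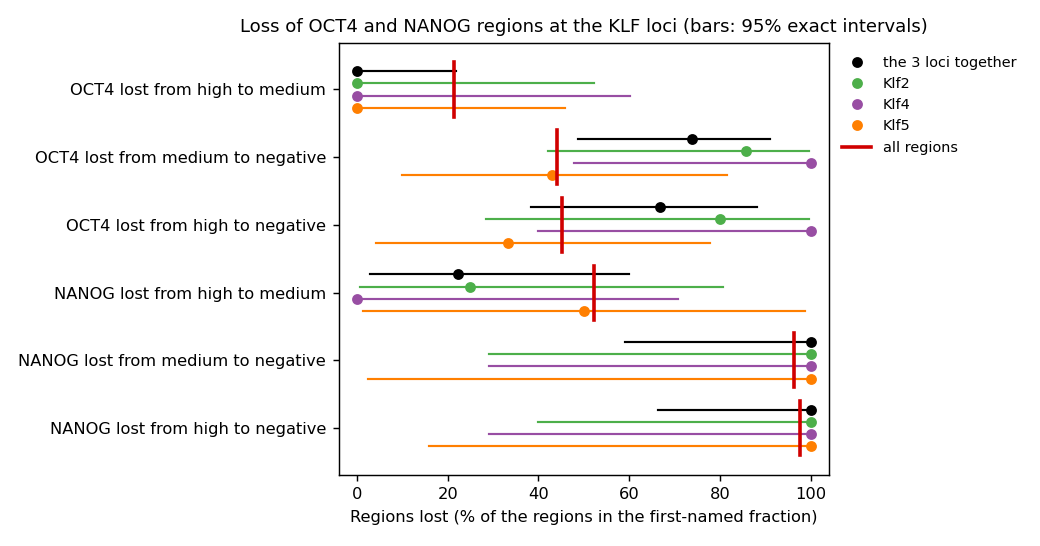
Share of regions lost between fractions (% of the regions of the first-named fraction) at the 3 loci together (black) and at each gene, with exact 95% intervals as lines, beside the share over all regions (red marks). OCT4 losses from high to medium cells are at 0% at each gene, and from medium to negative cells the interval of the 3 loci, 48.8 to 90.9%, lies above the genome-wide 44.1%. This did not hold for the regions within 20 kb (42.1 to 99.6%) or within 50 kb (38.4 to 88.2%), which are not drawn and whose intervals include 44.1%.

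OCT4 and NANOG were found together at 7 regions of high cells. These were 46.7% of the 15 OCT4 regions (21.3 to 73.4%), against 29.5% over the genome, and 77.8% of the 9 NANOG regions (40.0 to 97.2%), against 39.0%. The first interval includes the genome-wide share. The second starts just above it, and with the regions within 20 kb (3 of 4, 19.4 to 99.4%) it includes it. Of the 7, 5 were Class I, 71.4% (29.0 to 96.3%), against 55.3% of all regions bound by both factors, and 2 were Class II, 28.6% (3.67 to 71.0%), against 42.6%.

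Of the 5 Class I regions, 4 still had both factors in medium cells (80.0%, 28.4 to 99.5%), against 41.4% of all Class I regions. The fifth had kept OCT4 alone. OCT4 regions of high cells without NANOG were lost in negative cells in 5 of 8 cases (62.5%, 24.5 to 91.5%), against 40.6% over the genome. OCT4 was thus lost at these loci from regions with and without NANOG in the same interval. Among the 5 is the *Klf2* region that lies 20 bp from a NANOG region.

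The 21 regions fell into 8 combinations of the 6 lists. OCT4 in high and medium cells without NANOG was the most frequent, with 5 regions, a combination of 10.5% of all regions. OCT4 in medium cells alone followed with 4 regions (8.54% of all), as did both factors in high and medium cells and neither in negative cells, with 4 (3.54% of all), of which 3 were at *Klf4*. OCT4 in all fractions without NANOG was found at 3 regions, all of *Klf5*, and is the combination of 17.5% of all regions. In all, 16 regions had neither factor in negative cells, 12 had OCT4 and never NANOG, and 2 had NANOG and never OCT4. Of all 23767 regions, 10369 had OCT4 and 286 had NANOG in negative cells, so most regions of the genome also had neither factor there. The genome-wide shares of the last 2 groups were not counted.

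A region within 100 kb is common, so the number of regions was set beside that of all 22380 protein-coding genes. Of these, 80.3% had a region of any list within 100 kb, 18.3% a Class I region and 13.9% a Class II region. Within 20 kb the shares were 46.4%, 6.97% and 5.02%. The median gene had 2 regions within 100 kb. At least 8 regions, as *Klf2* and *Klf5* had, were found at 7.81% of genes, and at least 5, as *Klf4* had, at 23.3%.

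By Class I regions the order was another. At least 3 within 100 kb, as at *Klf4*, were found at 172 genes (0.769%), and at least 2, as at *Klf2*, at 3.66%. Neighbouring genes share regions and are not independent. Of the 172 genes, 25 including *Klf4* had no OCT4 region of negative cells within 100 kb, a count made after the values of *Klf4* had been seen. Within 20 kb, *Klf2* stood further out, with at least 6 regions at 2.49% and at least 2 Class I regions at 0.880% of genes. At least as many OCT4 regions as *Klf5* had within 100 kb were found at 3.96% of genes for high cells, 4.56% for medium cells and 9.22% for negative cells.

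The other KLF genes and the SP genes, which encode related zinc finger proteins, were examined in the same way, and all 23 were found in the annotation. Of these, 20 had a region within 100 kb and 16 within 20 kb, against 80.3% and 46.4% of all protein-coding genes. The median was 5.0 regions within 100 kb. *Klf7*, *Klf14* and *Klf17* had none. The most regions were at *Klf3*, with 14, and at *Klf9*, with 12, more than at *Klf2* or *Klf5*.

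Class I regions were found at 4 of the 23, *Klf9* and *Sp9* with 2 each and *Klf6* and *Sp8* with 1 each, and a Class II region at *Klf9* alone. Over all protein-coding genes, 18.3% had a Class I and 13.9% a Class II region within 100 kb, so the Class I count is near that of genes in general. Within 100 kb no KLF or SP gene had more Class I regions than the 3 of *Klf4*, but within 20 kb *Klf4* had 0, *Klf2* had 2 and *Klf6*, *Klf9* and *Sp9* had 1 each, and with regions joined within 500 bp *Klf2* also had 3. Of the 23 genes, 16 had an OCT4 region of negative cells, as did 60.7% of all protein-coding genes, and none had NANOG in negative cells, where the mean over all genes was 0.0314 regions. Of 51 OCT4 regions of high cells at these 23 genes, 26 (51.0%) were lost in negative cells, against 45.1% of all regions, and 7 (13.7%) also had NANOG, against 29.5%. Gains of OCT4 were found at these genes, with 21 of 46 OCT4 regions of negative cells (45.7%) absent from high cells, against 34.1% of all.

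**Figure D4:**
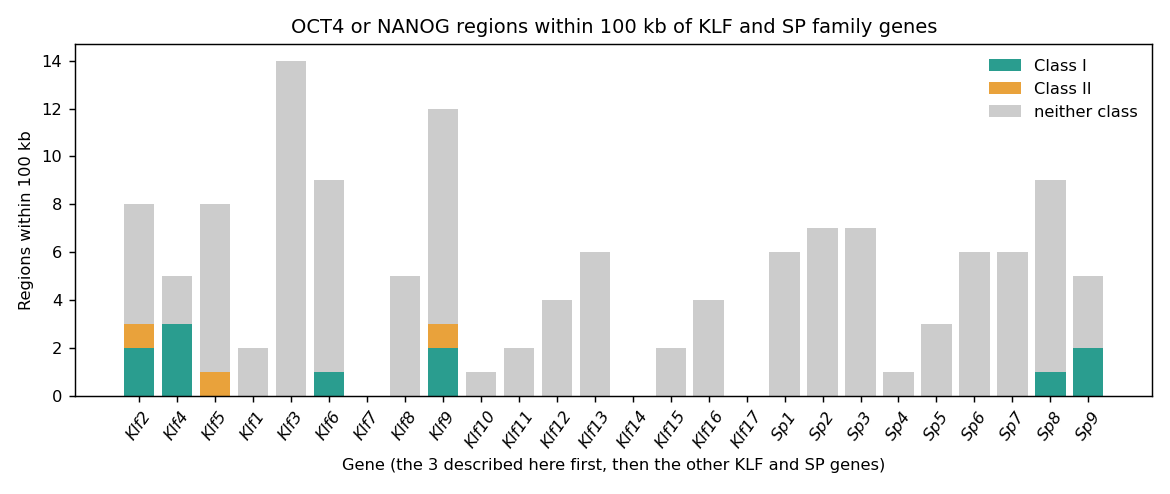
Number of OCT4 or NANOG regions within 100 kb of each KLF and SP gene, split into Class I (green), Class II (orange) and the other regions (grey). At this distance *Klf4* has the most Class I regions, 3, whereas *Klf3* has 14 regions and none of either class.

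The genes whose counts over the 6 lists were most like those of each KLF gene were named by the sum of absolute differences. *Fbxl17* had the same 6 counts as *Klf5*, and *Csmd1* and *D330012F22Rik* differed by 1 region, with 9 genes at a difference of 1 or less. For *Klf4*, *Maff* and *Tmem184b*, both on chromosome 15, differed by 1, each with 1 OCT4 region of negative cells where *Klf4* has 0, and *Apol7b* by 2. For *Klf2*, *4930455C21Rik* and *Ltk* differed by 1 and *Cd80* by 2. For both *Klf4* and *Klf2*, 13 genes were at 2 or less, so the third name is 1 of several at the same difference.

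Matches to the motifs were counted within 100 bp of each centre, on both strands, beside all regions scanned in the same way. The octamer matched exactly at 4 of 21 regions (19.0%, 5.45 to 41.9%), against 7.86% of all regions. These 4 matches are 3 places: the one upstream of *Klf2*, at 74835207 to 74835214, starts in the 20 bp between the NANOG and the OCT4 region and ends within the OCT4 region, so it was counted for both. It is the ATGCAAAT in capitals in the sequence of that pair. At *Klf4* the octamer was 1 bp from the centre of the region 12.7 kb downstream, where OCT4 was listed without NANOG. At *Klf5* it was in the Class II region. An exact octamer was thus found both where OCT4 was lost and where it was kept.

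The Oct-Sox composite matched at 4 regions (19.0%), against 19.2% of all. These were the widest Class I region of *Klf4* and 3 regions of *Klf5*, namely the NANOG region in *Pibf1* and those 41.2 and 55.5 kb downstream, which kept OCT4 in all fractions. Every one of these matches has 2 mismatches, the most allowed.

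The ESRRB element matched at 4 regions (19.0%), against 11.2% of all regions. Over the genome it matched at 18.4% of the Class I and at 11.8% of the Class II group. The matches were in the middle Class I region of *Klf4* (TCAAGGTTA), in the second Class I region downstream of *Klf2* (TCAAAGTCA), in the Class II region of *Klf5* (TCAAAGTCA) and in the region 31.7 kb upstream of *Klf5* (GCAAGGTCA), each with 1 mismatch. They thus lay in regions that lost OCT4 and in regions that kept it. The KLF element (GGGCGTGG or GGGTGTGG, exact) matched at 0 of the 21 (up to 16.1%), against 4.17% of all regions, and the STAT3 element (TTCCNGGAA, exact, added after the data had been seen) at 0, against 0.791%. Of the 21 regions 11 had a match to at least 1 of the first 4 motifs, against 36.3% of all regions. A match describes letters in a window and is not shown to be a binding site, and a window without one says only that these letters are not in it.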

How the data were processed

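OCT4 and NANOG ChIP-Seq of 3 sorted fractions was used, 6 libraries in all, grouped by the antibody and fraction that the labels give. The authors aligned the reads (Bowtie, per the submitters' processing notes; version not given in the sources used here), called peaks with SISSRs in GeneProf, merged them over datasets and removed a region from a fraction that retained under 50% of its highest signal. The deposited lists hold interval positions on mm9 and no other measurement: no score, signal or read count, so depth is unknown. No columns of other samples were present (0).

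Lists were joined where intervals overlapped by 1 bp or more. Genes are the 22380 protein-coding genes of GENCODE for the same assembly (NCBIM37), and distances run to the gene body. Positions count from 1. Shares have exact 95% binomial intervals (scipy), without tests, since each condition has 1 library. Motifs were scanned in the mm9 sequence within 100 bp of centres. The named genes are *Klf2*, *Klf4* and *Klf5*, the other KLF and SP genes, the closest protein-coding gene of a region where it is another, and for each of the 3 genes the 3 genes with the smallest difference in list counts, leaving out those within 1 Mb on the same chromosome. The members and lists were chosen with earlier results of these data known. Alternatives were other distances to the gene, joining within 500 bp, leaving out intervals narrower than their list's median, the closest gene only, all gene types, and other motif windows and mismatch limits. The STAT3 element and a scan inside the regions were chosen after seeing the data. Functions were tested on simulated data of 5000 regions, and 17 of 17 known answers were recovered. Python 3.11.15, numpy 2.4.6, scipy 1.17.1 and matplotlib 3.10.9 were used. Microarray, PCR and flow cytometry data were not analysed here.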

Additional observations from a re-analysis of the deposited data

How the results depend on the processing

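No paired analysis was possible because there is only 1 library of each factor in each fraction. Of the shares and counts that answer a comparison, 77 values under the alternatives were classed as near the values given and 19 as moved. The class of near values was wide: it holds an OCT4 loss from high to negative cells of 83.3% within 20 kb, against 66.7%. It also holds the shares for 100 kb of the start site, where the regions were the same and the shares could not move. The interval of the OCT4 loss from medium to negative cells lay above the genome-wide share in 3 of 7 alternatives, and that of the NANOG regions with OCT4 in 4 of 7. Both counts include 100 kb of the start site, which held the same regions and could only repeat the interval given. The interval of the OCT4 loss included the genome-wide share within 20 kb, within 50 kb, for the wider intervals and for the closest gene only. That of the NANOG regions with OCT4 included it within 20 kb, within 50 kb and for the wider intervals. For the wider intervals the genome-wide share was recounted over such intervals and was 58.9%. The interval there, 42.1 to 99.6%, lies above the 39.0% of all regions. With a distance of 20 kb, 8 regions remained, 2 of Class I and 1 of Class II, and with 50 kb 3 regions of Class I, because the Class I group of *Klf4* lies near and beyond that distance. With regions whose closest protein-coding gene is the KLF gene, 11 remained, 3 of Class I, and 0% of the NANOG regions of high cells were lost in medium cells. Counted within 100 kb of the start site, 1146 genes had at least as many regions as *Klf2* and 1146 as many as *Klf5*, against 1747. The octamer matched at 1 region within 50 bp, at 2 inside the regions and at 10 with 1 mismatch. Oct-Sox matched at 7 within 250 bp and at 0 with 1 mismatch. ESRRB matched at 1 within 50 bp and at 0 without mismatch. The KLF element matched at 1 within 250 bp and at 12 with 1 mismatch, and STAT3 at 3 with 1 mismatch. Motif counts at these loci therefore depend on window and mismatch limit. Without scores or depth, a region just under the limit of the authors cannot be told apart from one without signal.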

Other observations

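Between 100 and 200 kb from the 3 genes lay 5 further regions. *Klf4* had 1, chr4:55421112-55421191, with OCT4 in medium cells only and nearest to *Rad23b*, so no OCT4 or NANOG region of negative cells lay within 200 kb of *Klf4*. *Klf2* had 1, chr8:75025152-75025191, with OCT4 in high and negative cells and not in medium cells, nearest to *Med26*, which encodes a Mediator subunit. *Klf5*, without Class I regions within 100 kb, had 2 beyond it. One, chr14:99507132-99507271, is nearest to *Pibf1*, and the other, chr14:99909292-99909591, is nearest to *Klf5*. Both had OCT4 in high and medium cells and NANOG in high cells only, as had the first of the Class I pair downstream of *Klf2*. The Class I regions of *Klf4* had both factors in medium cells, as had 41.4% of all Class I regions. The last *Klf5* region, chr14:99507072-99507111, had OCT4 in medium cells only.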
